A study of Saccharomyces cerevisiae with 8 samples.

Results

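Cycloheximide (CHX) was compared with its solvent dimethyl sulfoxide (DMSO) in wild-type budding yeast, using the 4 wild-type libraries among the 8 of the series and all 11993 features of the deposited density table. The features were classed by their names into 6614 Y-named open reading frames, of which 5972 are genes of the reference annotation (build R64) and 642 are not, 27 Q-named mitochondrial genes, 1650 XUTs, 1526 NUTs, 925 CUTs, 845 SUTs, 272 nuclear tRNAs, 23 mitochondrial tRNAs, 81 snR features and 30 others. Among these, 4 kinds of non-coding RNA are told apart by how they come to light: XUTs are substrates of Xrn1, the exonuclease of the cytoplasm, CUTs of the exosome in the nucleus, NUTs appear once Nrd1-dependent termination fails, and SUTs are stable enough to be seen in normal cells. Both groups were BY4741, a haploid laboratory strain with the genotype MATa his3Δ1 leu2Δ0 met15Δ0 ura3Δ0, grown in YPD at 30 °C to an OD600 of 0.5. One group received CHX at 100 µg/ml for 15 min and the other the same volume of DMSO, with 2 biological replicates in each per the series design. The other 4 libraries carry a deletion of UPF1; they entered the shared estimate of spread and a separate comparison of the CHX effect between genotypes.

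CHX binds the ribosome and stops elongation, so that ribosomes stay on the mRNA they were translating. Because much of mRNA decay in yeast is coupled to translation, and because new protein is no longer made, blocked cells are known to keep many short-lived mRNAs that growing cells remove quickly. Cytoplasmic non-coding RNAs that carry short reading frames can also be bound by ribosomes, and the series asks what becomes of them when translation is blocked. The comparison described here asks which RNAs stood higher after 15 min of CHX, and which of them rose beyond the rise that nearly all transcripts shared.

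The DMSO libraries held 10434049 and 21036600 recovered reads and the CHX libraries 12170066 and 13977950. Medians of 276.5 to 653.5 reads fell on a Y-named feature and 7 to 26 on an XUT. The deleted genes LEU2 and URA3 stayed at 0 to 2 reads, while HIS3, whose his3Δ1 allele is a partial deletion, had 296 to 741. MET15, also deleted in this strain, is not shown here. The receptor gene STE2 of a cells had densities of 3.25, 3.43, 13.4 and 13.8 (DMSO 1, DMSO 2, CHX 1, CHX 2), and STE3, the receptor gene of the opposite mating type, stood far lower with 0.0105, 0.0130, 0.163 and 0.16. Other genes specific to a cells had mean DMSO densities from 0.108 (ASG7) to 15.6 (MFA2). Other genes specific to the opposite type ran from 0.00295 (MF(ALPHA)1) to 0.0776 (SAG1), so SAG1 lay close to ASG7. The samples are bulk cultures, in which fewer cells of a type and less RNA per cell cannot be told apart.

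Nearly all mRNAs, XUTs, SUTs, NUTs and CUTs rose on the deposited scale, while most snR features passed the test in neither direction. A deposited value is a read density, the reads of a feature divided by its length and by a factor of its library. Of the 11700 features tested, 11112 were higher (95%) and 9 were lower (0.0769%) at a Benjamini-Hochberg adjusted p under 0.05 in limma. The median Y-named feature rose by 1.57 in log2 over the 4 libraries (SD 0.0645 with CHX and 0.0566 with DMSO, n = 2 each), or 2.96-fold. The 81 snR features, small nucleolar and spliceosomal RNAs, had a median change of 0.02 in log2. How the densities were normalized is not given in the sources used here, so whether that step sets the snR level, and with it the size of the general rise, was not tested.

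To see what accumulated beyond this rise, each library was divided by its median ratio over 6212 Y-named features. The factors were 0.474 and 0.498 with DMSO and 1.38 and 1.48 with CHX, a general rise of 1.56 in log2 or 2.94-fold. On this rescaled scale 5067 features were higher (43.3%) and 2264 were lower (19.4%). At least 2-fold beyond the general rise, with an adjusted p under 0.05, stood 2258 features (19.3%), and 406 stood at least 2-fold below it (3.47%). Just inside the 2-fold limit, a rescaled log2 change of 1, lay NUT0040 at 1.0003 and NUT0556 at 1.0003, and just outside lay the ribosomal protein gene RPS9A at 0.9998 and SUT157 at 0.99959. The number 2-fold beyond depended on the scaling: it was 4891 when libraries were scaled on summed Y-named density, 1210 with a shift on the log scale and 973 with 4 times the pseudocount.

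XUTs, NUTs, SUTs and CUTs had higher median changes than reference mRNAs on the rescaled scale, and the order among the first 3 changed with the pseudocount and the test (0.96 for XUTs, 1.00 for NUTs and 0.81 for SUTs by voom). Among 1611 XUTs tested the median rescaled change was 0.83, and 639 (39.7%) were 2-fold or more beyond the general rise, against 19.3% of all features. NUTs followed with a median of 0.79 and 525 of 1485 (35.4%), SUTs with 0.72 and 247 of 820 (30.1%), and CUTs with 0.50 and 220 of 916 (24.0%). Y-named genes of the reference had a median of 0.05 with 439 of 5892 (7.45%). The Y-named frames outside the reference lay nearer to the non-coding classes, with a median of 0.68 and 185 of 565 (32.7%).

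**Figure D1:**
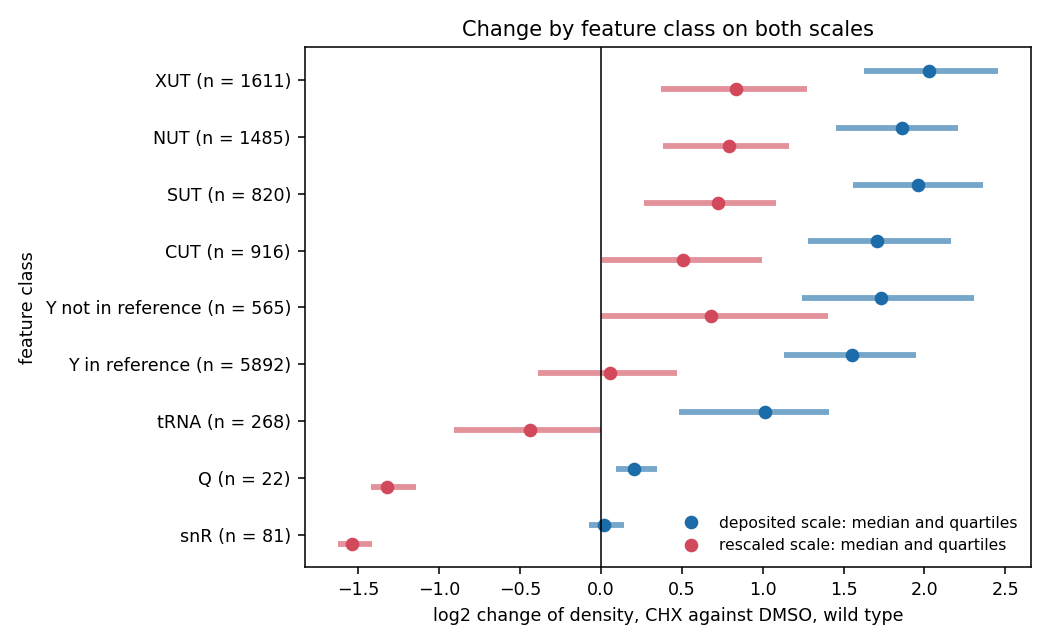
Median (points) and quartiles (bars) of the log2 change with CHX for 9 feature classes, on the deposited scale (blue) and after rescaling on Y-named genes (red), with the number tested beside each class. On the rescaled scale the medians of XUTs, NUTs, SUTs and CUTs lie at 0.83, 0.79, 0.72 and 0.50 and that of snR features at -1.54.

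The class medians were also compared as 1 value per library. Relative to the Y-named median of the same library, the rescaled XUT median was 0.01 and -0.01 with DMSO and 0.81 and 0.71 with CHX, a difference of 0.76 (SD 0.0699 with CHX and 0.0125 with DMSO, n = 2 each). The corresponding differences were 0.71 for NUTs, 0.64 for SUTs and 0.40 for CUTs, and -0.54 for tRNAs. In each of these 5 classes the CHX libraries did not overlap the DMSO libraries. An exact two-sided permutation test of 2 against 2 libraries gave p = 0.333 for every class, the smallest it can give. On the deposited scale the XUT gap over Y-named genes was 0.47 and turned to -0.04 with 4 times the pseudocount, with NUTs at -0.28 and CUTs at -0.26. Without any pseudocount, over features with at least 10 reads in each wild-type library, the gap was 0.77 for 637 XUTs, 0.78 for 840 NUTs, 0.79 for 467 SUTs and 0.11 for 258 CUTs.

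The gap between XUTs and mRNAs depended on abundance. Features were binned by their mean density over the 4 wild-type libraries, CHX libraries included. Below a density of 0.02, XUTs had a median rescaled change of 0.75 and reference Y-named genes 0.68, so rare mRNAs stood nearly as high as rare XUTs. From 0.02 to 0.05, the bin with the most XUTs, the medians were 0.83 for 750 XUTs and 0.73 for 230 genes. In that bin 37.1% of the XUTs and 33.9% of the genes were 2-fold or more beyond the general rise. From 0.05 to 0.1 the medians were 0.95 for 456 XUTs and 0.57 for 254 genes, and from 0.1 to 0.2 they were 0.90 for 116 XUTs and 0.37 for 592 genes. SUTs stayed level, between 0.61 and 0.80 in the 5 bins that held at least 20 of them. CUTs fell from 0.60 at 0.02 to 0.05 to -0.23 at 0.2 to 0.5, where 36.6% of them were lower. Among mRNAs the median was 0.73 at 0.02 to 0.05 and fell in each bin above that, to -0.68 from 2 to 10 and -0.77 at 10 or more, where 89.7% of 185 genes were lower. Across 5892 genes Spearman's rho between density and rescaled change was -0.555, a description over genes that share 4 libraries.

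**Figure D2:**
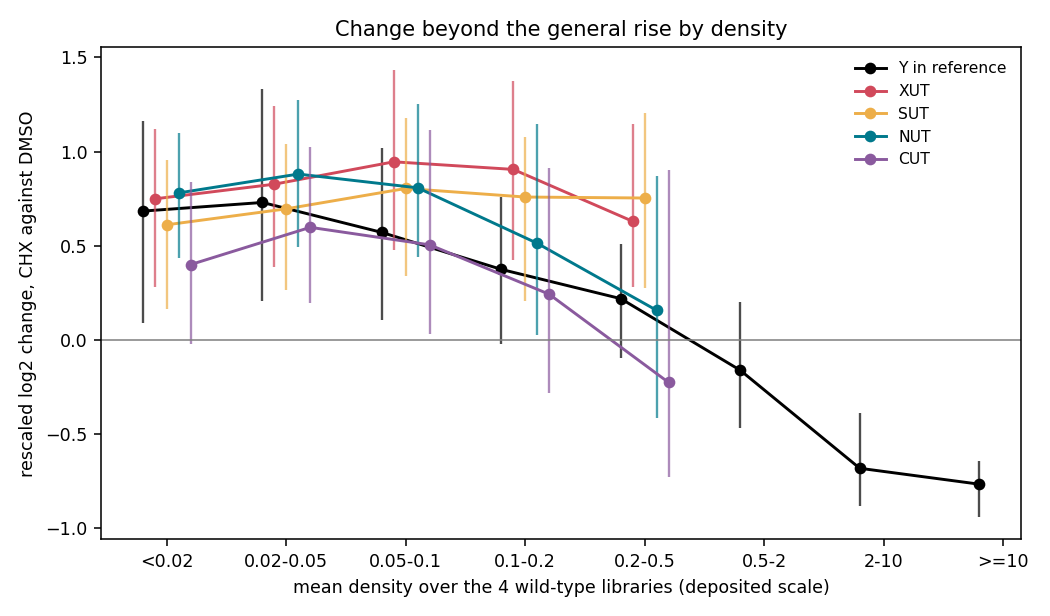
Rescaled log2 change with CHX (median, points; quartiles, bars) against the mean wild-type density in 8 bins, for Y-named genes of the reference and 4 non-coding classes. The mRNA line falls from 0.68 to -0.77, while XUTs stay between 0.63 and 0.95. Bins of under 20 features and 21 NUTs of density 2 to 10 (median -1.51) are not drawn.

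The share of genes 2-fold or more beyond the general rise also went with length and position. Of 257 genes shorter than 300 nt, 23.0% were, and of 894 genes of 2400 nt or more 1.57% were. The median change hardly followed length: it was 0.08 below 300 nt, 0.11 from 1200 to 2400 nt and -0.11 at 2400 nt or more. Spearman's rho over length was only -0.0682. Genes near chromosome ends stood higher: within 10 kb of an end 19 of 76 (25%) passed the 2-fold limit, from 10 to 30 kb 52 of 248 (21.0%), and farther than 100 kb 295 of 4458 (6.62%). Those end-proximal genes were also rare, with a median density of 0.0484 within 10 kb against 0.471 beyond 100 kb, and the part of density in this difference was not tested. Genes with introns, 264 in all, had a median of -0.48, and the part of density in this value was likewise not tested.

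CIT2, the peroxisomal citrate synthase and classic target of the retrograde pathway from mitochondria to nucleus, rose most among genes of at least median density. Its densities were 0.280 and 0.423 with DMSO and 26.0 and 31.1 with CHX, so every treated library stood far above both controls. The rescaled change was 4.80 (SE 0.16, limma adjusted p = 5.95e-06), 27.8-fold beyond the general rise and 81.1-fold on the deposited scale. NRG1, a repressor of glucose-repressed genes, went from 0.0876 and 0.0821 to 4.08 and 3.79, a rescaled change of 3.93 (SE 0.12). SPO24, a small protein of the prospore membrane, went from 0.819 and 1.05 to 35.6 and 34.1, a rescaled change of 3.67 (SE 0.11). DPI8, found in mitochondria, rose by 3.44 beyond the rest (SE 0.17), with densities of 0.110 and 0.156 against 4.51 and 4.02. In all 4 both CHX libraries lay above both DMSO libraries, as the rule that picked them required.

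ARO10, the decarboxylase that turns phenylpyruvate into the aldehyde of the Ehrlich pathway, had densities of 0.284 and 0.226 with DMSO and 5.39 and 5.14 with CHX, a rescaled change of 2.81 (SE 0.12, adjusted p = 1.76e-05). ARO9, the aromatic aminotransferase before it in that pathway, went from 0.587 and 0.497 to 7.71 and 7.01, a rescaled change of 2.2 (SE 0.12). It was added after its value was seen, as the partner of ARO10. ICY1, reported to be induced by amino acid starvation, went from 0.275 and 0.278 to 5.24 and 5.27, a rescaled change of 2.68 (SE 0.09, adjusted p = 5.95e-06). FMP48, found in mitochondria, rose by 2.34 (SE 0.13), and YJL213W and YER053C-A, both uncharacterised, rose by 2.70 (SE 0.15) and 3.19 (SE 0.29). YHR022C (3.44) and ECM12 (2.67) are neighbours on chromosome VIII that overlap on opposite strands; whether strand was used in counting is not stated, so their values are uncertain. CUP1-2, a metallothionein gene with near-identical copies that also overlaps another frame on its own strand, had densities of 0.0308 and 0.142 against 0.826 and 1.27, and its value of 2.34 (SE 0.64) is uncertain.

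The promoters of 5 of these genes are shown because their sequences hold matches to motifs of known transcription factors. Each window holds the 300 bases that end 100 bases before the start codon, on the coding strand, from the RefSeq genome of build R64, and capitals mark the motif letters found on either strand. In CIT2 (chrIII:122429-122728, minus strand) they mark GTCAC, the box bound by the retrograde factors Rtg1 and Rtg3. In ARO9 (chrVIII:375309-375608) and ARO10 (chrIV:1233818-1234117), both on the plus strand, they mark CCG followed by another CCG after 7 bases of any kind, the spaced triplets bound by the activator Aro80. In ICY1 (chrXIII:653634-653933) and SPO24 (chrXVI:645550-645849), also on the plus strand, they mark TCCGCGGA, the element bound by the drug resistance factors Pdr1 and Pdr3.
CIT2: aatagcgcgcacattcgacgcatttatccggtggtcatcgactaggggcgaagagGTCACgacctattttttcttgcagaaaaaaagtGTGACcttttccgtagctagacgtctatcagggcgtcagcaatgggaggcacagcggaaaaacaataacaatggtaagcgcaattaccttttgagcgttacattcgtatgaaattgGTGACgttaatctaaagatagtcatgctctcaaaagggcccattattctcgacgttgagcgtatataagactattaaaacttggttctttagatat
ARO9: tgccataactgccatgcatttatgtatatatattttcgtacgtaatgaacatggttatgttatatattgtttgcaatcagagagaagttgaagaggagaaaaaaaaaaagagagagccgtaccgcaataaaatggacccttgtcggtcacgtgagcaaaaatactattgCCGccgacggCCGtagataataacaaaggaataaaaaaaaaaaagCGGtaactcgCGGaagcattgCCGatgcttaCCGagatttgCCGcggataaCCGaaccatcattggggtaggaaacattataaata
ARO10: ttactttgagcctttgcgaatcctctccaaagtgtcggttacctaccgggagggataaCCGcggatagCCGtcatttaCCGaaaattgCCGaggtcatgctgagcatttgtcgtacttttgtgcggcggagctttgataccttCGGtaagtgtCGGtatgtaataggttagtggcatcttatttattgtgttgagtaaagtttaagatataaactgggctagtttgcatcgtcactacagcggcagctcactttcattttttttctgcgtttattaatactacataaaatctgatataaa
ICY1: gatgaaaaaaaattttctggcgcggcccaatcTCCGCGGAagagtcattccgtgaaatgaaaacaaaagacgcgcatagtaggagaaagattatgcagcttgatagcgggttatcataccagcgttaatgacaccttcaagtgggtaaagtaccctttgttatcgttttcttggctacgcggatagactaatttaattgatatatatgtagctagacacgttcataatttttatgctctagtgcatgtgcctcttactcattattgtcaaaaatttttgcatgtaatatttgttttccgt
SPO24: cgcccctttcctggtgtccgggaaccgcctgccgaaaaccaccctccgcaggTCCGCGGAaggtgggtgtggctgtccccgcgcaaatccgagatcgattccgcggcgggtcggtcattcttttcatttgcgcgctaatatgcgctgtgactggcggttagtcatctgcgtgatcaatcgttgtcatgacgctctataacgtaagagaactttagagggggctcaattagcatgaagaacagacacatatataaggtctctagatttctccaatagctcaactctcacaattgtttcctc

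Matches were counted in the same window of 6001 protein-coding genes, as a description of letters only, with the motifs chosen after the values were seen. CIT2 held 3 matches of GTCAC, as did 0.633% of windows, while 29.4% held at least 1. Of the 34 tested genes with 3 or more, 3, CIT2 included, were 2-fold or more beyond the general rise (8.82%). The median rescaled change of the 34 was -0.29. ARO9 held 5 and ARO10 4 matches of the spaced CCG triplets, some of which overlap. Windows with 3 or more were found for 5 genes (0.0833%), and the remaining 3 were SDH6 at a rescaled change of 0.84 (SE 0.13), ASK1 at 0.36 (SE 0.15, adjusted p = 0.0655) and MRPL35 at 0.14 (SE 0.08, adjusted p = 0.170). TCCGCGGA stood in 26 windows (0.433%), 25 of them tested, with a median rescaled change of 0.02. Of these 25 genes, 5 were 2-fold or more beyond the general rise (20%), against 7.45% of reference genes. The 5 include SPO24 and ICY1, for which the motif was chosen, so the share is in part fixed by that choice. PDR5, the main drug efflux pump and the textbook target of that element, was not among the 5. Its densities of 6.22, 6.72, 12 and 13.5 gave a rescaled change of -0.58 (SE 0.06, adjusted p = 0.000176).

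**Figure D3:**
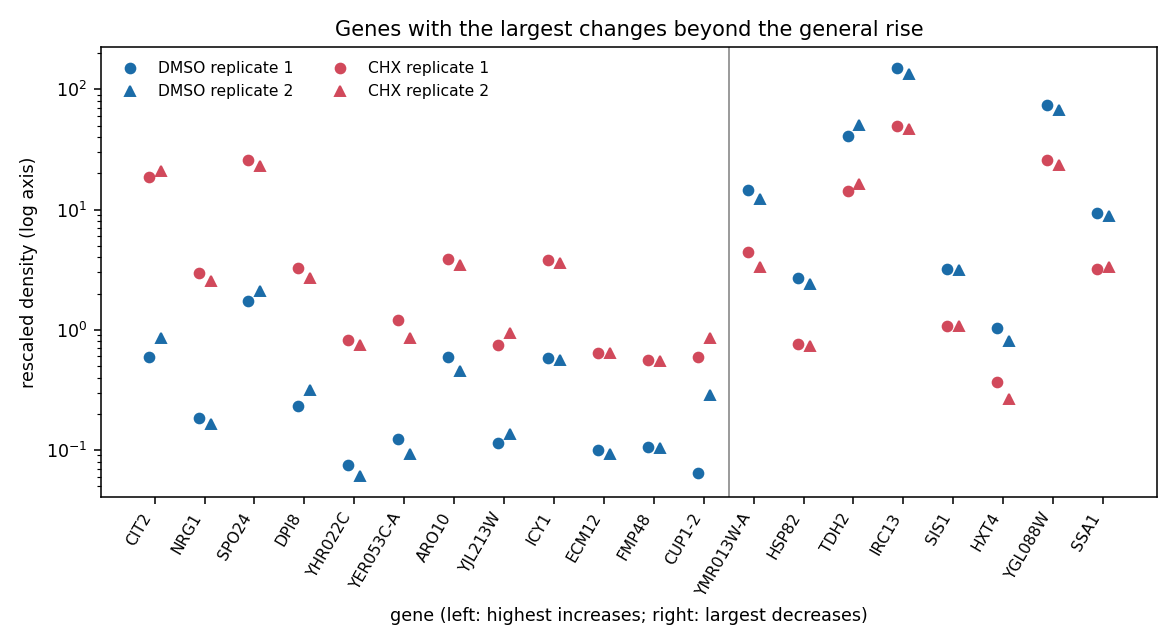
Rescaled density (log axis) in the 4 wild-type libraries for the 12 genes with the largest increases (left) and the 8 with the largest decreases (right) among Y-named features of at least median density. DMSO libraries are blue and CHX libraries red, and the genes were picked among those whose groups do not overlap; CIT2 and NRG1 moved by 4.80 and 3.93 in log2, HSP82 by -1.75.

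Genes that fell behind the general rise included chaperones and a glycolytic enzyme. HSP82, the stress-inducible Hsp90, had deposited densities of 1.27 and 1.19 with DMSO and 1.05 and 1.09 with CHX, so it did not follow the rise at all, and its rescaled change was -1.75 (SE 0.10, adjusted p = 2.84e-05). SIS1, a co-chaperone of Hsp70, stayed at 1.52, 1.57, 1.5 and 1.61, a rescaled change of -1.54 (SE 0.06). SSA1, an Hsp70 itself, stayed at 4.48, 4.44, 4.47 and 4.93, a rescaled change of -1.48 (SE 0.06). On the deposited scale none of these 3 passed the threshold, so their fall was relative to other mRNAs. TDH2, a glyceraldehyde-3-phosphate dehydrogenase with near-identical copies, was at -1.57 (SE 0.13), and HXT4, a glucose transporter, at -1.53 (SE 0.21). YMR013W-A, a frame outside the reference annotation, was at -1.78 (SE 0.16). Without reference coordinates its overlap with small RNA genes was not examined, so its value is uncertain. Its 586, 949, 329 and 280 reads lay close to the 617, 1005, 356 and 300 of the snoRNA snR73, which was at -1.76. IRC13 (-1.56) and YGL088W (-1.52) overlap the small RNA genes SNR17A and SNR10 on the same strand, and their reads cannot be told apart from those of the small RNAs.

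Rare Y-named features that gained most had almost no reads without CHX. YOR329W-A had 0 and 0 reads with DMSO and 23 and 22 with CHX, at least 32.9-fold higher in density against a floor of 3 reads over both DMSO libraries. YMR315W-A had 0 and 0 reads against 10 and 12, at least 16.1-fold higher by the same floor. YER085C had 0 and 4 reads against 54 and 64, and YDL026W 0 and 1 against 22 and 23, a density ratio of 98.8 (exact 95% interval for counting error only, 16.9 to 3989). The folds and the ratio given for these frames are of deposited density and so include the general rise of 2.94-fold. The same rule required their groups to be apart, and the sizes of their changes are poorly bounded.

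Among non-coding transcripts the largest rises came from features near zero in growing cells. XUT0977 had densities of 0.00746 and 0.0182 with DMSO and 0.980 and 0.886 with CHX (2, 9, 165 and 159 reads), a rescaled change of 4.46 (SE 0.29, adjusted p = 3.26e-05). XUT1581 had 0 and 0 reads against 29 and 28, at least 41.7-fold higher in deposited density, the general rise included, against the same floor. XUT0495 had 0 and 1 reads against 19 and 10, and XUT0429 had 1 and 0 against 22 and 20. These transcripts went from the edge of detection to clear signals. SUT030 rose by 3.13 beyond the rest (SE 0.21; 4 and 5 reads against 80 and 94), SUT738 by 2.72 (SE 0.25) and SUT150 from 1 and 3 reads to 27 and 22. CUT480 rose by 3.12 (SE 0.10; 18, 32, 303 and 349 reads), CUT172 by 2.94 and CUT782 from 0 and 4 reads to 26 and 26. NUT0493 rose by 3.08 (SE 0.16; 3 and 8 reads against 82 and 85), NUT0185 by 3.0 and NUT0407 from 0 and 9 reads to 31 and 35. In the other direction, XUT1484 was at -1.77, SUT298 at -1.42, CUT314 at -2.08 and NUT0186 at -1.95, the last with densities of 0.823, 0.804, 0.690 and 0.546. No coordinates of these 4 classes were used here, so overlap with genes was not examined.

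The regulatory RNAs SRG1 and ICR1 went beyond the general rise, and the RNAs of stable particles fell behind it. SRG1, the non-coding RNA whose transcription represses SER3, went from 0.738 and 0.764 to 3.52 and 3.57, a rescaled change of 0.68 (SE 0.06, adjusted p = 0.000106), and ICR1, the interfering RNA at FLO11, from 0.0650 and 0.0643 to 0.309 and 0.314, a change of 0.69 (SE 0.10). HRA1 had 0 and 3 reads against 14 and 18. The RNA of the signal recognition particle, SCR1, the RNase P RNA RPR1, the RNase MRP RNA NME1 and the telomerase RNA TLC1 had rescaled changes of -2.02, -1.57, -1.53 and -1.26. Of these 4, TLC1 alone passed the threshold on the deposited scale, at 0.30 (SE 0.12, adjusted p = 0.0384). The 22 Q-named mitochondrial genes tested had a median of -1.32 on the rescaled scale and 0.20 on the deposited scale, and 21 were lower on the former, and 0 were higher there in limma, in voom or before adjustment of p.

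The snoRNAs, which guide modification of ribosomal RNA, were not uniform even on the deposited scale. Of the 9 features lower there, 4 were C/D box snoRNAs, 1 was a nuclear and 3 were mitochondrial tRNAs with at most 4 reads in any library, and the last was NUT0186. snR38, encoded in the intron of TEF4, went from 1.66 and 1.61 to 1.14 and 0.781, a change of -0.79 (SE 0.20, adjusted p = 0.00282). snR54, in an intron of IMD4, went from 1.38 and 1.41 to 0.920 and 0.896 (-0.61, SE 0.16), and snR18, in an intron of EFB1, changed by -0.35 (SE 0.13). Their host genes rose on the same scale, by 0.55 for TEF4, 0.92 for IMD4 and 0.55 for EFB1. snR67, which no protein-coding gene hosts, changed by -0.51 (SE 0.15). Not all hosted snoRNAs fell: of 8, 3 were lower, 2 were higher, snR39 of RPL7A (0.37) and snR59 of RPL7B (0.91), and 3 did not pass. snR87 and snR62 rose most, by 1.48 and 1.46 (SE 0.16 each). Of 45 C/D box snoRNAs 10 were higher and 4 lower, and of 29 H/ACA snoRNAs 0 passed in either direction in limma, at an unadjusted p under 0.05 or by voom.

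tRNA genes lay between the snoRNAs and the mRNAs, with few reads each. Of 268 tested, 5 were higher and 69 lower in limma on the rescaled scale, with a median of -0.44. By voom 1 was higher and 67 were lower. In limma tT(UGU)P rose beyond the general rise, from 5 and 10 reads to 16 and 22 (adjusted p = 0.00561). So did tN(GUU)K, from 24 and 46 to 66 and 62 (adjusted p = 0.0243), and tS(UGA)P, from 32 and 70 to 89 and 93 (adjusted p = 0.0366). Among tRNAs with at least 10 reads in each DMSO library, tI(AAU)I2, tG(GCC)P2 and tS(AGA)G were lowest, at -1.99, -1.70 and -1.67. By amino acid, the medians ran from -0.87 for 20 leucine tRNAs to -0.07 for 4 cysteine tRNAs, apart from 1 gene of unassigned identity. Reads of tRNA copies with the same sequence can be split or lost in counting, so single tRNA genes are uncertain.

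Genes of 26 lists were then followed on the rescaled scale, where 34.9% of the 6457 Y-named features tested were higher and 29.1% lower, with a median of 0.09. The lists were chosen with earlier results of these data known, and their counts are a description. Scaling on summed Y-named density moved the median of all features from 0.33 to 0.86, so all changes that follow are relative to the typical Y-named gene.

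Of 142 transcription factors tested, 84 were higher and 16 lower, with a median of 0.40. Of the 142, 17 (11.97%) were 2-fold or more beyond the general rise, close to the 9.66% of all Y-named features. The median DMSO density of the 142 was 0.130 against 0.189 for all Y-named features. The part of density in the place of this list was not tested. SIP4, an activator of gluconeogenic genes, went from densities of 0.00485 and 0.0042 to 0.101 and 0.0990 (15, 24, 196 and 205 reads), a rescaled change of 2.35 (SE 0.18, adjusted p = 5.55e-05). NRG2, the paralog of NRG1, went from 0.189 and 0.175 to 2.62 and 2.37, a change of 2.2 (SE 0.14). HAC1, the activator of the unfolded protein response whose mRNA is spliced outside the nucleus, stood at the other end at -1.24 (SE 0.17), with densities of 6.41, 6.77, 7.57 and 8.93. Glucose repression regulators split: NRG1, NRG2, MIG3, RGT2 and STD1 were higher, and 7 of 18 were lower, led by HXK2, the hexokinase that represses, at -1.07 (SE 0.07). In the retrograde response CIT2 (4.80) and DLD3 (1.25), a 2-hydroxyglutarate transhydrogenase, were highest, 5 of 16 were higher and 7 lower, and BMH1, a 14-3-3 protein that restrains the pathway, was at -0.90. Of 32 subunits of RNA polymerase II and Mediator, 13 were higher and 5 lower, with the Mediator subunit NUT2 at 1.01 (SE 0.08), MED7 at 0.94 and SRB2 at -0.90. RNA polymerase I and III subunits differed in count, with 1 higher and 9 lower of 24, a median of -0.11 and RPA14 lowest at -0.55, which became 0.05 with summed density scaling.

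Mating and autophagy genes had higher shares than the 34.9% of all Y-named features. Of 35 genes of the pheromone response, 22 were higher and 2 lower, with a median of 0.43. PRM5, a pheromone-regulated membrane protein also induced by cell wall stress, went from 0.261 and 0.326 to 3.12 and 3.84, a rescaled change of 2.00 (SE 0.11, adjusted p = 2.84e-05). PRM4 was at 1.5 (SE 0.09), and STE12, the transcription factor of the pathway, was lowest at -0.27, but at 0.33 with summed density scaling. Autophagy genes, 33 in all, had a median of 0.35 with 17 higher and 3 lower. Their median DMSO density of 0.0924 was also below that of all Y-named features, and that of the pheromone list was 0.179. ATG41, which acts with Atg9 in forming autophagosomes and is the paralog of ICY1, went from 0.0977 and 0.0802 to 1.00 and 0.881, a change of 1.82 (SE 0.14), and ATG14, a subunit of the autophagy lipid kinase, was at 1.01 (SE 0.13). ATG13, which activates the Atg1 kinase, was at -0.50, and at 0.09 with summed density scaling. Cyclins and their inhibitors had 13 higher and 5 lower of 23, with PCL9 at 1.08 and PCL1 at 1.02, both cyclins of the kinase Pho85, against CLN3, the first G1 cyclin, at -0.72 (SE 0.17). Signalling kinases, ubiquitin ligases and DNA repair genes had medians and shares closer to those of all Y-named features. Kinases of signalling had 29 higher and 14 lower of 69, with a median of 0.11, and YAK1, a kinase that opposes growth, was at 1.08 (SE 0.08). Ubiquitin ligases and adaptors had 15 higher and 7 lower of 43 and a median of 0.20, with the F-box gene YDR131C at 1.22, ROG3, an arrestin-type adaptor, at 0.91 and RSP5, the main adaptor-recruited ligase, at -0.63. DNA repair genes had 18 higher and 9 lower of 50 and a median of 0.12, led by RAD18 (1.24) and RAD10 (1.09), with the ribonucleotide reductase gene RNR4 lowest at -0.88.

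Several lists of abundant housekeeping genes moved below the rise nearly as a block. All 20 aminoacyl-tRNA synthetases were lower, with a median of -0.80 and a narrow range from -1.14 for GUS1 to -0.39 for GLN4; 0 were higher in limma, at an unadjusted p under 0.05 or by voom. GUS1, which charges glutamate, went from 3.95 and 4.25 to 5.15 and 5.84 on the deposited scale, so it rose there by 0.42 (SE 0.16, adjusted p = 0.0254) while the typical gene rose by 1.56. With summed density scaling the synthetase median was -0.20, 10 were lower, and GLN4 (0.22) and FRS1 (0.05) were above 0. Of 34 proteasome genes 33 were lower, with a median of -0.60 and RPN2 lowest at -0.94 (SE 0.07), and 0 were higher in limma, at an unadjusted p under 0.05 or by voom. The exception was RPN4, the activator of proteasome genes, whose mRNA stood at 0.09 (SE 0.10, adjusted p = 0.449) with densities of 0.418, 0.427, 1.29 and 1.35. Ergosterol synthesis had 23 lower of 25, with a median of -0.60, ERG2 lowest at -0.95 and ERG5 alone past the threshold above the rise, at 0.27 (SE 0.08, adjusted p = 0.0198). With summed density scaling 3 proteasome genes were higher and 6 lower, 9 ergosterol genes were higher and 6 lower, and both medians came to 0.01. Vacuolar hydrolases had 9 lower of 12 and 0 higher in limma, at an unadjusted p under 0.05 or by voom, with a median of -0.68 and CPS1, a carboxypeptidase, at -1.0; with summed density scaling 3 were higher and 4 lower and the median was -0.08. These lists have median DMSO densities of 2.66, 1.08, 1.46 and 0.827 against 0.189 for all Y-named features, and the part of density in their place was not tested.

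**Figure D4:**
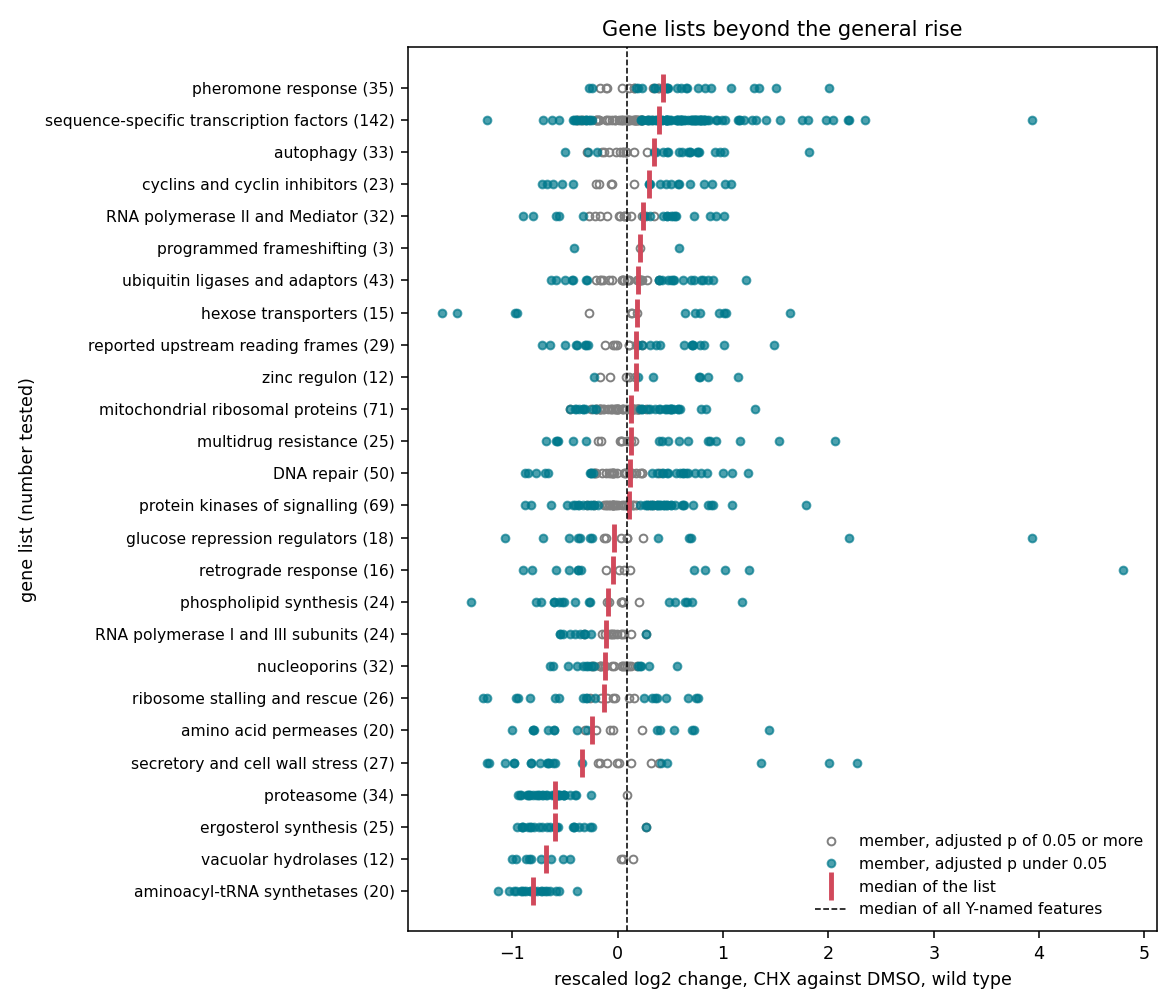
Rescaled log2 change with CHX of every tested member of 26 gene lists (filled points, adjusted p under 0.05; open points, not past it), with each list's median as a red mark and the median of all Y-named features (0.09) as a dashed line. Lists are ordered by median, from 0.43 for the pheromone response to -0.80 for aminoacyl-tRNA synthetases.

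Genes of membrane transport and stress split within their lists. Among 15 hexose transporters tested, 7 were higher and 4 lower with a median of 0.18, but 1 was higher and 4 lower with a median of -0.16 after a shift on the log scale. HXT7, a high-affinity carrier with near-identical copies, was at -1.66 (SE 0.26), while HXT13 went from 0 and 2 reads to 22 and 22. Amino acid permeases had 6 higher and 9 lower of 20, from DIP5, the carrier of acidic amino acids, at 1.44 (SE 0.09; 0.920, 1.04, 7.54 and 8.10) to MUP1, the methionine permease, at -1.01 (SE 0.09). In the multidrug resistance list 11 of 25 were higher and 6 lower. RTA1, a membrane protein, rose from 5 and 12 reads to 56 and 68, a rescaled change of 2.06 (SE 0.18), and TPO4, a polyamine transporter, was at 1.53 (SE 0.15), while QDR2, a drug exporter, was lowest at -0.68. The list of secretory and cell wall stress had 5 higher and 14 lower of 27: the cell wall genes PIR3 (2.27, SE 0.10; 0.0281, 0.0297, 0.435 and 0.443), PRM5 and PST1 rose beyond the rest, and KAR2, the Hsp70 of the endoplasmic reticulum, was at -1.22 (SE 0.07). Phospholipid genes had 6 higher and 11 lower of 24, from INO1, inositol phosphate synthase, at 1.18 (SE 0.15) to CHO2, a phosphatidylethanolamine methyltransferase, at -1.39 (SE 0.07). In the zinc regulon 6 of 12 were higher and 1 lower, with the activator ZAP1 at 1.14 and the uptake carrier ZRT1 at 0.86; ZRC1, which stores zinc in the vacuole, was at -0.22 and turned to 0.38 with summed density scaling.

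Genes tied to ribosome stalling did not move as a group. Of 26 factors that sense, rescue or clear stalled ribosomes or store idle ones, 8 were higher and 11 lower, with a median of -0.13. CUE2, the endonuclease that cuts mRNA at stalled ribosomes, was highest at 0.77 (SE 0.11; 0.0868, 0.0776, 0.406 and 0.426), and LSO2, which binds idle ribosomes, was at 0.75 (SE 0.15). CDC48, the ATPase that extracts stalled chains among many other clients, was lowest at -1.28 (SE 0.11), and ASC1, the ribosomal protein at which collided ribosomes are sensed, was at -0.96 (SE 0.09). Among 29 genes with reported upstream reading frames, 13 were higher and 8 lower, with a median of 0.18: DAL5, an allantoate permease, was at 1.49, FRM2 at 1.01 and CLN3 at -0.72. Of 3 genes decoded by frameshifting, EST3 was higher at 0.58 (SE 0.07), OAZ1 was at 0.22 (adjusted p = 0.161) and ABP140 was lower at -0.41, but at 0.19 with summed density scaling. Mitochondrial ribosomal protein genes had 22 higher and 9 lower of 71, from MRPL24 at 1.30 and MRPS17 at 0.84 to RSM19 at -0.45, which became 0.15 with summed density scaling. Nucleoporin genes had 5 higher and 9 lower of 32, from ASM4 at 0.56 to NSP1 at -0.64.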

How the data were processed

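Total RNA, to which an external standard was added, went through ribosomal RNA removal and a stranded library kit, per the labels' protocols. The submitters' processing notes name HISAT2 2.2.0, Trim Galore, DESeq2 and featureCounts 2.0.0, and build R64. The normalization step is not given in the sources used here. As deposited, the table holds a signal, the authors' normalized read density per feature and library. For 11986 features the values divided into whole reads within a tolerance of 0.001, and these reads were used to describe depth. Groups and replicate numbers came from the sample titles. Names were matched to RefSeq R64 symbols.

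The test used log2(density + 0.00549), the 5th percentile of values above 0, which understates changes at low density. After leaving out 293 features whose mean density lay under that value, 11700 were tested in limma 3.58.1 (R 4.3.3), with 8 libraries, 4 group means, 4 residual degrees of freedom, a mean-variance trend and Benjamini-Hochberg adjustment over all features. The unit differed from counts, so no count model was the main test; limma-voom on recovered reads was an alternative. SE is the model's. Motifs and lists were described by counts. The fitting code was tested on simulated data.

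Named features are the 12 largest increases and 8 largest decreases among Y or Q features of at least median density, 4 rarer Y features, the extremes of each other class with at least 10 reads in each library of the higher group, and the 2 highest and 1 lowest of each list, with further members chosen after their values were seen. The members and lists were chosen with earlier results of these data known. Replicate numbers did not pair the samples. The 2 replicates of a group differed by more than sampling noise (chi-square per feature 3.62 with DMSO and 4.17 with CHX). Alternatives covered scaling, pseudocount, filter, voom, replicate block and leaving out each library.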

Additional observations from a re-analysis of the deposited data

Results flagged for a closer look

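The wild-type effect of CHX was set against the effect in cells lacking UPF1, whose product is needed for nonsense-mediated decay of mRNA, by limma's interaction term on the rescaled scale. The term passed an adjusted p of 0.05 for 2812 of 11700 features and for 38 of the 132 features that the naming rule picked. The named features were picked for extreme changes in wild type, so a larger wild-type effect is in part fixed by the choice. Differences below are the wild-type minus the upf1 log2 effect. Shares of reads with DMSO also differed by genotype. XUTs took 0.913% and 0.892% of reads in the upf1 DMSO libraries, against 0.293% and 0.276% in wild type. SUTs took 0.647% and 0.628% against 0.194% and 0.183%, and NUTs 4.72% and 4.18% against 4.94% and 4.76%. The part of the upf1 DMSO level in the differences was not tested.

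Rare reading frames and non-coding transcripts made up many of them. YOR329W-A differed by 3.88, YDL026W by 3.12 and YMR315W-A by 3.06. Among XUTs, XUT0495 differed by 3.85, XUT1581 by 1.9 and XUT0977 by 1.87. SUT150 differed by 1.47, SUT030 by 1.4 and SUT738 by 1.17, CUT172 by 1.97 and CUT480 by 1.9, and NUT0493 by 1.97 and NUT0185 by 1.18.

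PIR3, a cell wall gene, rose by 2.27 in wild type and changed by -0.02 in upf1 cells, a difference of 2.29 (adjusted p = 0.000303). ECM12 differed by 2.24, its overlapping neighbour YHR022C by 1.25 and YJL213W by 1.86. The allantoate permease gene DAL5 rose by 1.49 and changed by -0.55, a difference of 2.04, and the Mediator gene NUT2 rose by 1.01 and changed by -0.61, a difference of 1.62. The zinc genes ZRT1 and ZAP1 differed by 1.47 and 0.692, the phospholipid genes INO1 and INO2 by 1.07 and 0.447, and the ubiquitin ligase adaptors YDR131C and ROG3 by 1.21 and 0.904. STE3 differed by 1.21, EST3 by 1.06, SIP4 by 1.01, the permease gene AGP3 by 1 and CUE2 by 0.557. CIT2, NRG1, SPO24 and DPI8, the largest rises among genes of at least median density, did not pass. Their differences were 0.0429 (adjusted p = 0.909), -0.343 (adjusted p = 0.194), 0.343 (adjusted p = 0.135) and 0.0190 (adjusted p = 0.963). ARO10 (0.0843, adjusted p = 0.757) and ICY1 (-0.298, adjusted p = 0.122) did not pass either.

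Some named features that fell behind the general rise did not pass, such as HXT4 (difference -0.106, adjusted p = 0.817) and ABP140 (0.0662, adjusted p = 0.647). For those that passed, the wild-type effect was the lower one, a sign in part fixed by picking the lowest in wild type. The difference was -1.21 for tG(GCC)P2, -1.08 for tC(GCA)Q with at most 4 reads a wild-type library, -0.687 for RSM19, -0.663 for SIS1, -0.482 for HSP82, -0.439 for ERG2, -0.378 for QDR2 and -0.366 for RPN2.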

How the results depend on the processing

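The counts depended on how libraries were scaled and on the pseudocount. With summed density scaling 8527 features were higher and 593 lower, and 4891 were 2-fold beyond (1894 Y-named, 1096 XUTs, 496 SUTs, 951 NUTs, 436 CUTs) and 58 2-fold below. A shift on the log scale gave 1210 (409, 357, 138, 196 and 108 in that order), and 4 times the pseudocount gave 973 (357, 285, 107, 137 and 85). On the deposited scale 5 features were lower with a filter of 4 times the pseudocount, and 6 to 20 with each library left out in turn. The gap of XUTs, SUTs, NUTs and CUTs over Y-named genes on that scale was -0.0376, 0.00232, -0.275 and -0.257 with 4 times the pseudocount, and 0.793, 0.653, 0.731 and 0.393 with 0.25 times it. It was 0.758, 0.635, 0.705 and 0.401 after rescaling, and 0.769, 0.790 and 0.776 for the first 3 classes without a pseudocount; these last 2 settings were added after seeing the data. The stricter filter gave 0.449 for NUTs.

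Summed density scaling turned the sign for ABP140 (0.19), GLN4 (0.22), FRS1 (0.046), RPA14 (0.053), RSM19 (0.15), RPN11 (0.35), ATG13 (0.094), STE12 (0.33), ZRC1 (0.38) and NAM7 (0.56), and the log shift for HXT14 (-0.16); the cause was not tested. Leaving out 1 library ended the call of 8 to 13 of the 132 named features and turned none. Calls of tS(UGA)P, RPA14, ERG5, STE12 and NUP82 were among those lost, as were, for at least 1 library, those of CUP1-2, tN(GUU)K, tI(AAU)I2, FRM2, GLN4, SRB2, RPN11, RPC53, HXT14, ZRC1 and tK(UUU)Q. With the replicate number as a block, 5108 features were higher and 2335 lower on the rescaled scale, and 1 named feature newly passed. Same-numbered libraries did not deviate together (correlation -0.013), so the samples share only a number. With 2 libraries a group, p-values rest on 4 residual degrees of freedom, and features with few reads have wide intervals.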
